A study of Mus musculus with 2 samples.

Results

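The genes of the mitochondrial respiratory chain were followed across the endocrine cell classes of mouse pancreatic islets. They were chosen by symbol: every gene of the WT gene list whose name starts with Nduf, Sdha to Sdhd, Uqcr, Cox4 to Cox8, Atp5, mt-Nd, mt-Co, mt-Cytb or mt-Atp. This gave 109 genes of 27998, of which 13 are encoded by the mitochondrial genome and 96 by the nucleus. The nuclear genes comprise 83 structural subunits (36 of complex I, 4 of complex II, 8 of complex III, 20 of complex IV and 15 of complex V) and 13 assembly or accessory factors. The 96 nuclear genes lie on 19 chromosomes, with 3 on the X chromosome, and all 109 genes had at least 1 unique molecular identifier (UMI, standing for 1 captured transcript) in WT cells.

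The islets came from male mice of 8 weeks that had been fasted for 12 hours, and were profiled with 10x Genomics 3′ v2 chemistry. One library was from mice with a miR-203 transgene specific to beta cells (TG) and 1 from wild-type (WT) mice; the labels name neither the promoter of the transgene nor the number of mice pooled per library. The WT library supplied every value on cells, because the copy of the TG matrix used here held no barcode with more than 110 UMIs. With 1 library there was no replicate check, so no test was made, and every interval in brackets is a 95% interval for counting error alone.

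The respiratory chain passes electrons from NADH (complex I) and succinate (complex II) through complex III to oxygen at complex IV, and complex V, the ATP synthase, uses the resulting proton gradient to make ATP. Complexes I, III, IV and V are built from nuclear and mitochondrial gene products together, whereas complex II is wholly nuclear. In beta cells this chain couples glucose oxidation to insulin release, since a higher ratio of ATP to ADP closes the potassium channels that hold the membrane polarised.

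Among 4547 WT barcodes of at least 5610 UMIs and 500 genes, 3258 (71.7%) were classed as beta, 423 as alpha, 137 as delta and 117 as PP, and 549 met no hormone rule. The rules were an insulin share (Ins1 and Ins2) of at least 30% of UMIs, a Gcg share of at least 8%, an Sst share of at least 3% and a Ppy share of at least 8%, and 63 barcodes that met several were set aside. Within 20% of the insulin limit lay 238 barcodes on the inside and 136 on the outside, so the beta class is a range of hormone content and not a closed type. The classes were checked against marker genes that the rules did not use: 8 of 9 beta markers, 6 of 8 alpha markers, 6 of 7 delta markers and 3 of 4 PP markers were highest in their own class. The PP class stood least apart, since its 4 markers summed to 283 CPM in PP and 269 in alpha, and 1 of its 117 barcodes held 6361 of its 6423 UMIs of haemoglobin genes. Median depth was 23415 UMIs per barcode in beta, 15015 in alpha, 9020 in delta and 21063 in PP, but outside 7 hormone genes it was 10349, 10536, 7180 and 10378. Levels are therefore given as counts per 1000000 UMIs outside those hormone genes (CPM). These are 3′ counts, not scaled by transcript length, so they are compared between classes and not between genes. Free RNA was estimated from 589592 droplets of at most 200 UMIs and could account for at most 9.65% of the UMIs of beta, 9.51% of alpha, 15.7% of delta and 14.8% of PP barcodes.

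RNA of the mitochondrial genome made up more of the beta class than of any other endocrine class. The 13 mitochondrially encoded genes took 7.47% of UMIs outside the hormone genes in beta (7.46 to 7.47), against 3.35% in alpha (3.33 to 3.37), 3.64% in delta (3.60 to 3.67) and 4.38% in PP (4.34 to 4.41). As a share of all UMIs, hormones included, the values were 3.24% in beta, 2.38% in alpha, 2.82% in delta and 2.44% in PP, in which beta was still the highest but by a smaller margin. The nuclear structural subunits differed far less, at 2.74% of UMIs outside the hormone genes in beta, 2.47% in alpha, 2.43% in delta and 2.38% in PP.

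The ratio of mitochondrially encoded to nuclear subunit UMIs needs no total and was 2.73 in beta (2.72 to 2.73), 1.36 in alpha (1.35 to 1.37), 1.497 in delta (1.47 to 1.52) and 1.84 in PP (1.81 to 1.86). Beta thus stood 2.01-fold over alpha (2.00 to 2.03), 1.82-fold over delta (1.80 to 1.85) and 1.48-fold over PP (1.46 to 1.503), and over PP without the barcode rich in haemoglobin RNA the value was also 1.48. The barcodes of no class, taken as 1 pool, went the other way, at a ratio of 2.89, with beta at 0.944-fold of it (0.938 to 0.9502). Their free-RNA limit was 44.7% of UMIs. Every group of them sorted by markers had a ratio under that of beta, from 0.962 (T cell, 1 barcode) to 2.48 (ductal markers, 46 barcodes). These groups cover only part of the 549 barcodes. As the pool is at 2.89, the barcodes in no marker group must together lie above 2.89, and so above beta. The ductal name is uncertain: its marker list summed to 1420 CPM there, but also to 1129 in delta and 1100 in PP. That group had 13.8% insulin UMIs and a free-RNA limit of 40.7%. Free RNA and depth moved with the mitochondrial to nuclear ratio. It was 5.88 in the droplets of at most 200 UMIs, where mitochondrially encoded genes reached 13.4% of UMIs outside the hormone genes, and taking off the free-RNA limit gave 2.32, 2.42 and 2.02 over alpha, delta and PP. Among barcodes of 10000 to 30000 UMIs the values were 2.30, 1.83 and 1.73. This range kept 48 of 137 delta and 93 of 117 PP barcodes.

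The difference was also seen barcode by barcode. Mitochondrially encoded RNA took a median of 7.27% of UMIs outside the hormone genes in beta barcodes (10th to 90th percentile 5.02 to 10.9), 3.18% in alpha (2.36 to 4.21), 2.84% in delta (2.22 to 4.60) and 4.11% in PP (3.004 to 6.49). The 10th percentile of beta therefore lay above the 90th percentile of alpha and delta, while the ranges of beta and PP overlapped. The nuclear subunits had medians of 2.64% in beta, 2.45% in alpha, 2.39% in delta and 2.36% in PP. In counts, a median beta barcode held 773 mitochondrially encoded and 270 nuclear subunit UMIs, a median alpha barcode 340 and 261, a median delta barcode 200 and 180 and a median PP barcode 435 and 259.

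**Figure D1:**
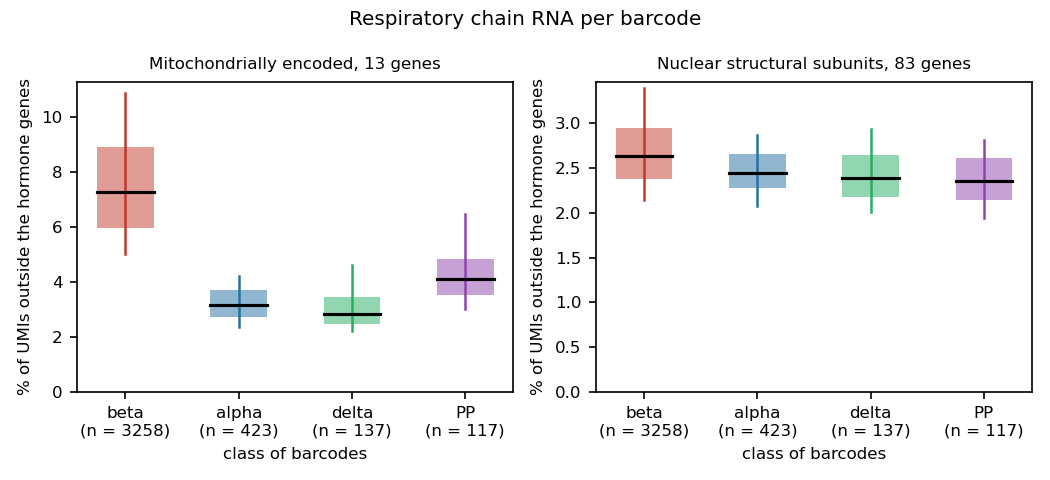
Percent of UMIs outside 7 hormone genes (y axis) per WT barcode in each class (x axis), for the 13 mitochondrially encoded genes (left) and the 83 nuclear structural subunits (right); black lines are medians, boxes the 25th to 75th and lines the 10th to 90th percentile over barcodes of 1 library. The mitochondrially encoded median is 7.27% in beta and at most 4.11% in the other classes, while the nuclear medians lie between 2.36% and 2.64%.

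Each mitochondrially encoded gene was then set against the median gene of the same contrast, since the median gene itself lay at log2 0.36 in beta over alpha. Against alpha, 11 of 12 measured genes lay more than 1.5-fold (log2 0.58) above the median gene, with a median log2 ratio of 0.69, where 17.2% of all 6707 genes did so. Against delta, 12 of 12 lay above, with a median of 1.01, where 18.0% of 7095 genes did so, and against PP 10 of 12, with a median of 0.66, where 15.9% of 6846 genes did so. The whole interval lay beyond 1.5-fold for 7, 11 and 6 of these genes. On CPM of all UMIs without centring, 11 of 12 ratios against alpha and 12 of 12 against delta and PP were still above 0, but only 2, 0 and 2 passed 1.5-fold. 10 genes lay above in all 3 contrasts, where 8.94% of the 6564 genes measured in all 3 did so, and the contrasts share the beta barcodes.

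Among the mitochondrially encoded subunits of cytochrome c oxidase (complex IV), mt-Co1 had 16394 CPM in beta. It had 6184 in alpha, 7741 in delta and 8928 in PP. Its log2 ratio relative to the median gene was 1.05 over alpha (1.03 to 1.07), 1.06 over delta (1.03 to 1.09) and 0.77 over PP (0.74 to 0.79). The levels of mt-Co2 were 7953 CPM in beta, 3175 in alpha, 3457 in delta and 4461 in PP, and those of mt-Co3 were 14922, 6966, 7112 and 9184 CPM in the same order. In all 3 genes the order of the classes was beta, PP, delta, alpha, and the intervals of delta and alpha overlapped for mt-Co3. With barcodes weighted equally delta was below alpha for mt-Co3, at 6748 CPM in delta and 6900 in alpha. The cytochrome b of complex III, mt-Cytb, followed the same order, with 7138 CPM in beta, 4118 in PP, 3866 in delta and 3169 in alpha.

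The mitochondrially encoded subunits of complex I form its membrane arm, which pumps protons, and they were less uniform. The gene with the smallest ratio over alpha was mt-Nd1, at 5821 CPM in beta, 3707 in alpha, 3145 in delta and 3802 in PP, with log2 ratios of 0.29, 0.87 and 0.50, of which the first was -0.06 on CPM of all UMIs without centring. The largest ratio over delta was that of mt-Nd3, at 734 CPM in beta, 369 in alpha, 275 in delta and 367 in PP, with log2 ratios of 0.64, 1.40 and 0.89. For mt-Nd2, mt-Nd4, mt-Nd4l and mt-Nd5 the log2 ratio lay between 0.60 and 1.25 in all 3 contrasts. The only mitochondrially encoded member on the other strand, mt-Nd6, had 245 UMIs in beta, 16 in alpha, 8 in delta and 10 in PP, which is under the floor of 20 CPM in every class, so no ratio is given.

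For ATP synthase, mt-Atp6, part of the proton channel, had 13788 CPM in beta, 5942 in alpha, 6977 in delta and 8386 in PP, and its log2 ratios were 0.86, 0.96 and 0.61. The second subunit, mt-Atp8, had 127 CPM in beta, 63.8 in alpha, 70.9 in delta and 86.1 in PP, with ratios of 0.63, 0.82 and 0.45. The 2 genes are read from 1 RNA and overlap by 43 bases at chrM:7927-7969 (GRCm38, plus strand), shown here because a read within it belongs to both; the capitals mark the start codon of mt-Atp6 and the stop codon of mt-Atp8.
mt-Atp8 and mt-Atp6 overlap: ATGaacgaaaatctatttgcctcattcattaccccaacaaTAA
The genes mt-Nd4l and mt-Nd4 overlap by 7 bases in the same way, and mt-Nd5 and mt-Nd6 by 14 bases on opposite strands. The labels do not say how reads in these overlaps were assigned, so the split within each pair is uncertain.

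**Figure D2:**
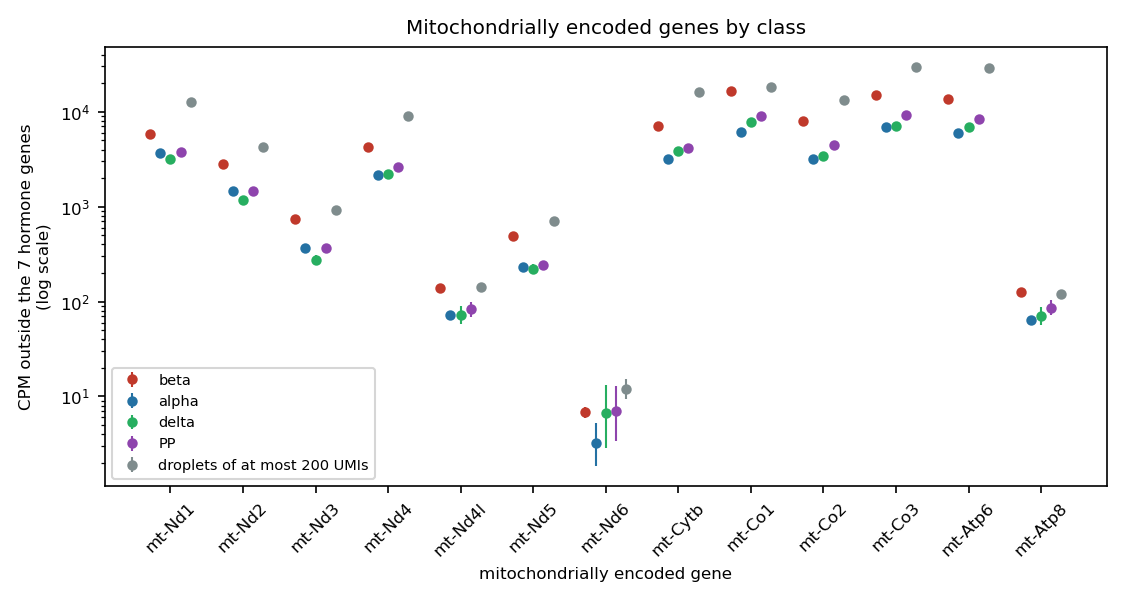
Level of each mitochondrially encoded gene (x axis) in CPM outside 7 hormone genes (y axis, log scale) in 4 classes and in droplets of at most 200 UMIs; points are sums over barcodes of 1 library and bars 95% exact Poisson intervals. Beta lies above alpha, delta and PP for every gene but mt-Nd6, whose intervals are wide, and for mt-Co1 the values are 16394 CPM in beta and 6184 in alpha.

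The nuclear members showed no such shift as a group. Of 82 measured nuclear members 2 lay above and 7 below the median gene by 1.5-fold in beta over alpha, where 17.2% of all genes lay above and 15.5% below. Over delta 8 lay above and 4 below of 83, beside 18.0% and 17.0% of all genes, and over PP 3 lay above and 2 below of 82, beside 15.9% and 14.5%. The whole interval was beyond 1.5-fold for 1 above and 4 below over alpha, 2 and 0 over delta, and 2 and 0 over PP. The median log2 ratio of the 76 measured structural subunits was -0.14 over alpha, 0.12 over delta and 0.15 over PP. These signs depend on the scale: with all UMIs in the total and no centring the medians were -0.49, -0.69 and -0.11, and with hormone and mitochondrial UMIs out and no centring they were 0.28, 0.20 and 0.30.

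By complex, the medians over alpha ran from -0.23 in complex V (15 genes) and -0.16 in complex IV (13 genes) through -0.14 in complex III (8 genes) and -0.10 in complex I (36 genes) to -0.05 in complex II (4 genes). Over delta they ran from 0.03 in complex III to 0.17 in complexes II and IV, and over PP from 0.06 in complex V to 0.30 in complex II. No nuclear complex median was beyond 1.5-fold. Within complex V the 5 genes of the F1 head, which holds the catalytic sites, had a median of -0.40 over alpha, 0.14 over delta and 0.06 over PP. Within complex I, the 7 nuclear genes of the catalytic core, which carry its flavin and iron-sulphur clusters, had medians of 0.06, 0.32 and 0.36, and the 29 supernumerary subunits -0.14, 0.07 and 0.16.

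**Figure D3:**
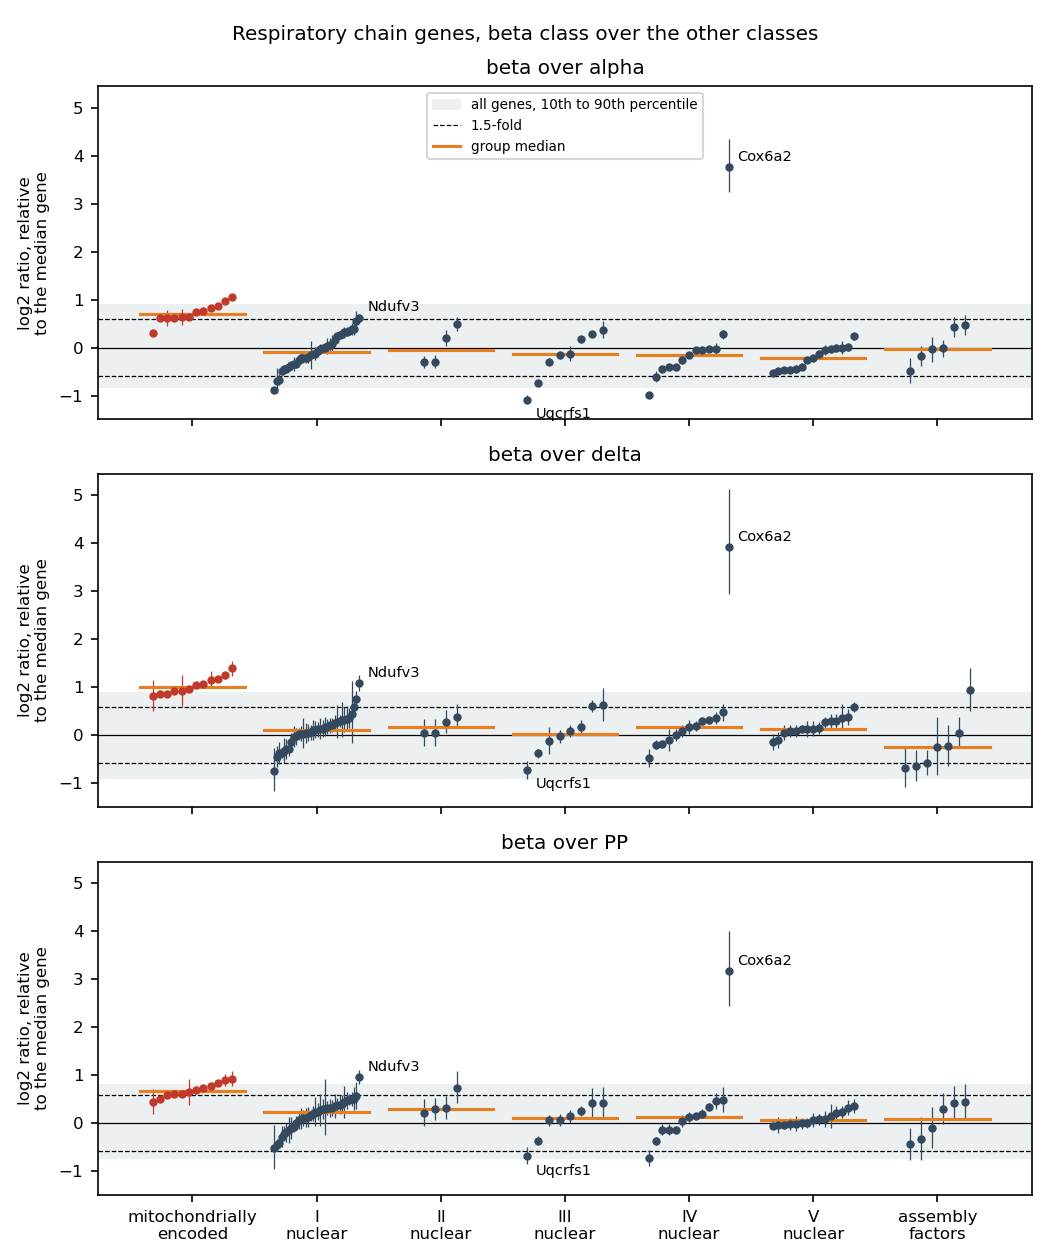
Log2 ratio of beta over alpha, delta and PP (panels, y axis), relative to the median gene, for each measured member grouped by genome and complex (x axis); bars are 95% exact intervals for counting error, orange lines group medians, dashed lines 1.5-fold and the grey band the 10th to 90th percentile of all genes. Mitochondrially encoded genes have medians of 0.69, 1.01 and 0.66, the nuclear complexes stay between -0.23 and 0.30, and Cox6a2 stands alone at 3.77, 3.92 and 3.16.

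In all 3 contrasts, 2 nuclear members lay above, Cox6a2 and Ndufv3, and 1 below, Uqcrfs1. Of 6564 genes measured in all 3 contrasts, 587 (8.94%) lay above and 403 (6.14%) below in each. The subunit Ndufv3, a supernumerary part of the NADH-oxidising arm of complex I at chr17:31520115-31531331 (plus strand), had 596 CPM in beta (589 to 604), 303 in alpha (287 to 318), 277 in delta (248 to 308) and 284 in PP (257 to 314). Beta was the highest and the other classes lay close together, with log2 ratios of 0.62 over alpha, 1.09 over delta and 0.96 over PP. The Rieske iron-sulphur protein of complex III, Uqcrfs1, at chr13:30540308-30545362 (minus strand), went the other way: it had 129 CPM in beta (125 to 133), 214 in alpha (201 to 227), 209 in delta (184 to 237) and 192 in PP (170 to 216). Its log2 ratios were -1.09, -0.72 and -0.69. Beta was the lowest, and the intervals of the other classes overlapped. Both genes kept their direction but not always 1.5-fold. Ndufv3 was at 0.27 over alpha and 0.27 over delta on CPM of all UMIs without centring, and at 0.53 over alpha in barcodes of 10000 to 30000 UMIs. Uqcrfs1 was at -0.35 over delta in those barcodes, of which 48 were delta. Over PP, Uqcrfs1 was at -0.53 with hormone and mitochondrial UMIs out of the total and no centring.

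The other nuclear members beyond 1.5-fold were so in 1 or 2 contrasts. Over alpha the small complex IV subunit Cox7c lay below, at 699 CPM in beta, 1087 in alpha, 790 in delta and 841 in PP (log2 ratio -0.99 over alpha, -0.20 over delta, -0.38 over PP). The complex I subunit Ndufa6 had 616, 887, 786 and 758 CPM in the same order and a ratio of -0.88 over alpha. Also more than 1.5-fold below over alpha were Uqcrh, the hinge protein of complex III (-0.74), Ndufa9 (-0.70), Ndufb6 (-0.67) and Ndufa4 (-0.60). Ndufa4, once counted with complex I and now with complex IV, also lay below over PP (-0.73).

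Over delta the members above were the complex I subunits Ndufb9 (0.75) and Ndufa2 (0.59), the complex III subunits Uqcrc1 (0.63) and Uqcrq (0.61), the epsilon subunit of ATP synthase Atp5e (0.59), and Sdhaf1 (0.93), an assembly factor of complex II. On CPM of all UMIs without centring the first 5 of these turned below 0, at -0.066 for Ndufb9, -0.22 for Ndufa2, -0.18 for Uqcrc1, -0.21 for Uqcrq and -0.23 for Atp5e, so their direction depends on the scale. The complex I assembly factors Ndufaf2 (-0.69) and Ndufaf4 (-0.64) and the subunit Ndufa9 (-0.73) lay below over delta. Over PP, Sdhc, a membrane anchor of complex II, lay above (0.73). Delta and PP rest on fewer counts, for example 45 UMIs of Ndufa9 and 43 of Sdhaf1 in delta, and 78 of Sdhc in PP. Many nuclear members have processed pseudogenes in the mouse genome, and reads shared with such copies cannot be told apart here. Of the 13 assembly and accessory factors, 6 reached the floor in the contrasts with alpha and PP and 7 in that with delta.

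Cox6a2, at chr7:128205435-128206387 (minus strand), encodes the isoform of complex IV subunit VIa known from heart and skeletal muscle, and Cox6a1 encodes the widespread one. Cox6a2 had 3693 UMIs in beta, 29 in alpha, 8 in delta and 15 in PP, which is 102 CPM in beta (99.1 to 106), 5.87 in alpha (3.93 to 8.44), 6.67 in delta (2.88 to 13.1) and 10.6 in PP (5.93 to 17.5). Free RNA alone could give up to 5.29 CPM in alpha, 8.00 in delta and 10.5 in PP, and 8.80 in beta. The levels outside beta are therefore at what free RNA could supply and are not read as expression, and the log2 ratios of 3.77 over alpha (3.24 to 4.35), 3.92 over delta (2.94 to 5.13) and 3.16 over PP (2.44 to 4.001) are ratios to that background. In the droplets of at most 200 UMIs Cox6a2 was at 70.9 CPM. Cox6a1 had 617 CPM in beta, 492 in alpha, 475 in delta and 526 in PP, within 1.5-fold in every contrast, so that Cox6a2 made up 14.2% of the pair's UMIs in beta (13.8 to 14.7), 1.18% in alpha, 1.38% in delta and 1.97% in PP.

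Within the beta class Cox6a2 was uneven. It had a UMI in 43.0% of beta barcodes (41.3 to 44.8), against 5.44% of alpha, 5.84% of delta and 12.8% of PP barcodes. With each barcode thinned to 2000 UMIs outside the hormone genes, which left out 12 beta barcodes, the shares were 15.3% in beta, 0.709% in alpha, 0.730% in delta and 1.71% in PP. In beta, 1856 barcodes had none, 664 had 1 UMI, 274 had 2, 176 had 3, 100 had 4, 44 had 5 and 144 had 6 or more, with a highest value of 27. The squared variation beyond counting was 2.47, against 0.410 for the next member, Ndufa4, and a median of 0.0778 over 90 members. Over 3594 genes the median was 0.104, and 27 genes, Cox6a2 among them, reached 2.47 or more. The level moved with depth: over 4 depth bins of beta barcodes, from the shallowest to the deepest, it was 64.6, 87.1, 117 and 117 CPM, while Ndufv3 was at 569, 581, 609 and 609 CPM and Uqcrfs1 at 128, 123, 130 and 133 CPM. The part of depth in this spread was not tested.

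**Figure D4:**
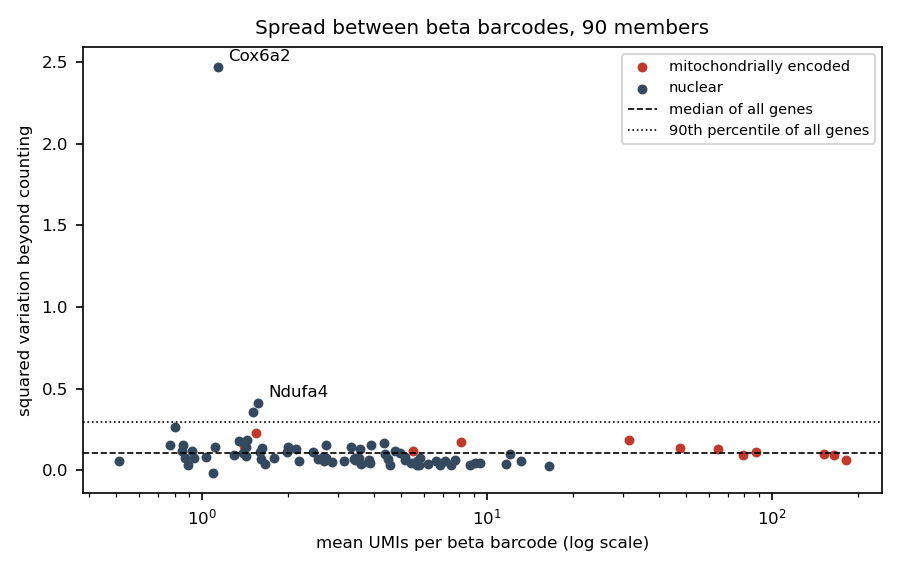
Squared variation between the 3258 beta barcodes beyond counting (y axis) against mean UMIs per barcode (x axis, log scale) for 90 members, with the median and the 90th percentile of all genes as lines. Cox6a2 stands at 2.47 and Ndufa4 is next at 0.410. The mitochondrially encoded genes run from 0.0632 (mt-Co1) to 0.231 (mt-Nd4l), beside a median of all genes of 0.104.

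Over beta, alpha, delta, PP and the barcodes of no class, the genes with the profile most like that of Cox6a2 were Prss53, Rnf182, Bag4, Atp2a2 and Trpm5, with Pearson correlations of 0.999, 0.998, 0.998, 0.997 and 0.997 of log2 levels over 5 groups. These groups come from 1 library, and any gene found mostly in beta barcodes has a profile of this kind. Trpm5, a calcium-activated cation channel, had 375 CPM in beta, 24.1 in alpha, 22.5 in delta and 33.9 in PP. Atp2a2, the calcium pump of the endoplasmic reticulum, had 821 CPM in beta, 227 in alpha, 242 in delta and 301 in PP.

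The other isoform genes were low in the endocrine classes. Cox7a1, also known from muscle, had 225 UMIs in beta, 5 in alpha, 7 in delta and 5 in PP, or 1.21% of the UMIs of Cox7a1 and Cox7a2 in beta (1.05 to 1.37), 0.192% in alpha (0.0625 to 0.449), 1.15% in delta (0.462 to 2.35) and 0.674% in PP (0.219 to 1.57). The intervals of beta, delta and PP overlapped, and alpha was below beta. Cox8b had 7 UMIs in beta, Cox7b2 had 5 and Cox8c had 0, and Cox6b2 had 13 UMIs in beta and 7 in delta. Of the 3 genes that encode the same c-ring protein of ATP synthase, Atp5g1 gave 31.9%, Atp5g2 48.0% and Atp5g3 20.1% of their UMIs in beta, against 23.5%, 57.4% and 19.1% in alpha. In delta the shares were 30.8%, 47.3% and 22.0%, and in PP 30.7%, 48.7% and 20.6%.

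Cox4i2 and Ndufa4l2, paralogues of Cox4i1 and Ndufa4 that are known for their response to low oxygen, were found mainly outside the hormone classes. In 40 barcodes of no class that held both endothelial and mesenchymal markers, Cox4i2 had 111 UMIs, or 33.1% of those of Cox4i2 and Cox4i1 (28.1 to 38.5), and 34 of the 40 barcodes had a UMI. In 74 barcodes sorted by endothelial but not by mesenchymal markers the share was 6.94% (4.76 to 9.70), and in beta it was 0.0553% (0.0322 to 0.0885). The 74 barcodes still held 1062 CPM of the mesenchymal list, beside 3663 in the 40 barcodes and 9.12 in beta. Which cells supplied the Cox4i2 and Ndufa4l2 RNA of the 74 barcodes was not tested. Ndufa4l2 had 213 UMIs in the 40 barcodes, 81.6% of those of Ndufa4l2 and Ndufa4 (76.4 to 86.1), with a UMI in 40 of 40. Its share was 34.4% (26.9 to 42.6) in the 74 barcodes with endothelial markers and 1.57% (1.25 to 1.95) in beta. No doublet caller was run on these barcodes.

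**Figure D5:**
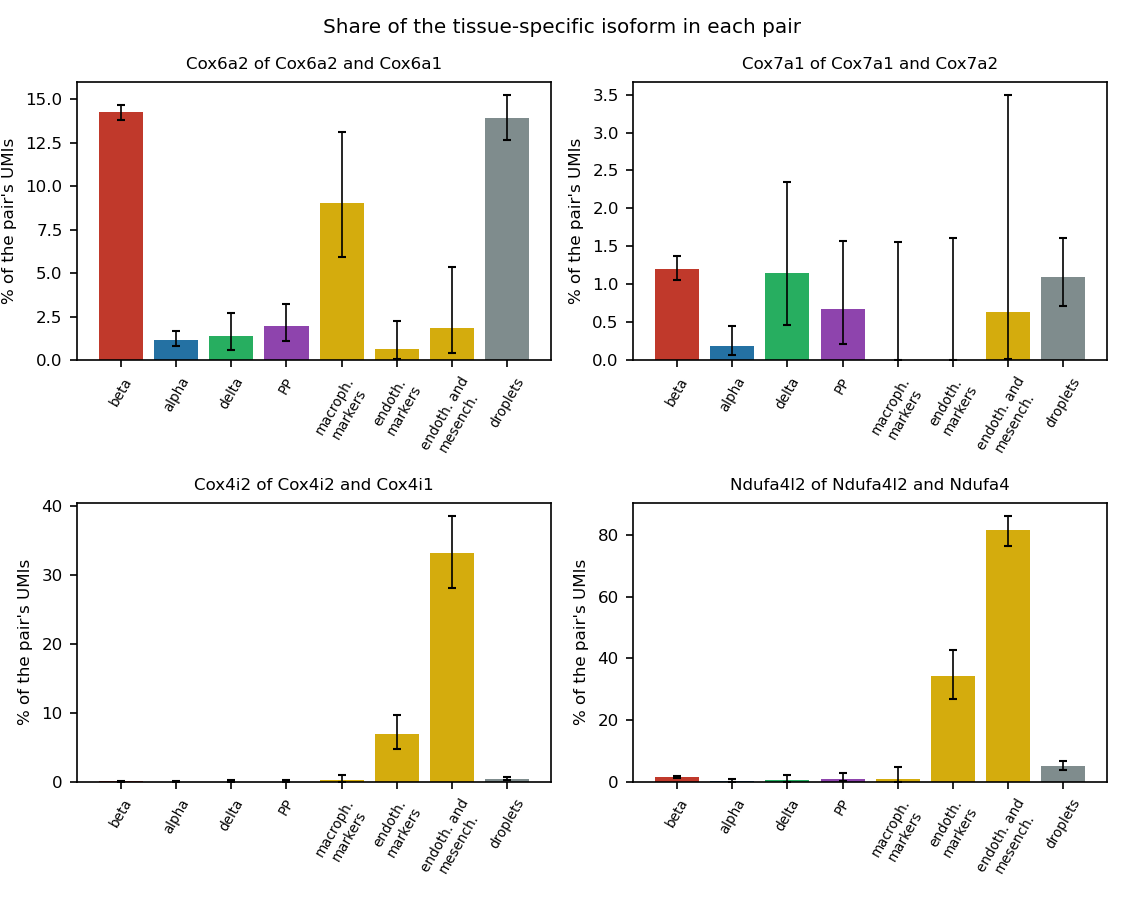
Percent of the pair's UMIs that came from Cox6a2, Cox7a1, Cox4i2 and Ndufa4l2 (y axis of each panel) in 4 hormone classes, in 3 groups of no-class barcodes sorted by markers and in droplets of at most 200 UMIs (x axis); bars are sums over barcodes of 1 library with 95% Clopper-Pearson intervals. Cox6a2 is at 14.2% in beta and at most 1.97% in the other hormone classes, and of the 25 Cox6a2 UMIs in barcodes with macrophage markers 19 came from 1 barcode; Cox4i2 and Ndufa4l2 peak at 33.1% and 81.6% in the barcodes with endothelial and mesenchymal markers.

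Across beta barcodes, mitochondrially encoded genes went up and down together and nuclear ones hardly did. The median Spearman correlation of levels was 0.769 over 28 pairs of 8 mitochondrially encoded genes, 0.110 over 231 pairs of 22 nuclear subunits and -0.0877 over 176 mixed pairs (3258 barcodes). In 423 alpha barcodes the medians were 0.552, 0.0624 and 0.0308. The barcodes share 1 library and the values share each barcode's total, and the nuclear genes have fewer UMIs per barcode. Over the same 4 depth bins of beta barcodes the mitochondrially encoded share was 8.74%, 8.00%, 7.31% and 6.70% of UMIs outside the hormone genes, and the nuclear share 2.57%, 2.63%, 2.78% and 2.84%. In alpha the mitochondrially encoded share was 3.14%, 3.27%, 3.31% and 3.52% over its own 4 bins, so that beta was above alpha at every depth.

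The promoters of nuclear members are known for sites of NRF1 and of GABP, also called NRF2, which are general activators of respiratory genes. RefSeq promoters (GRCm38.p6, 250 bases before to 50 after the gene start) were found for 77 of the 96 nuclear members, in 82 windows. The NRF1 motif, GCGCA and GCGC with any 1 base between them, was in 22 of 82 windows (26.8%) on either strand, beside 4.60% of all 32851 windows, and the GABP motif CCGGAAG in 20 (24.4%), beside 8.86%. An ERR motif, AAGGTCA, was in 8 (9.76%), beside 4.72%, and the E-box CANNTG in 68.3%, beside 72.3%. The windows of members also had more CpG pairs, with a median of 19.5 beside 7 over all windows, and a match is a description and not a bound site. Among members with an NRF1 match the median log2 ratio was -0.14 over alpha, 0.12 over delta and 0.11 over PP, and among those without one -0.19, 0.10 and 0.12, so the medians were close. The promoters of Cox6a1, the partner of Cox6a2 that was even across classes, and of Ndufv3 and Uqcrfs1, which were not, are shown 5′ to 3′ with NRF1 and GABP matches in capitals (the 2 longer runs are NRF1 matches and the shorter run is the GABP motif read on the reverse strand).
Cox6a1, chr5:115348909-115349208 (minus strand): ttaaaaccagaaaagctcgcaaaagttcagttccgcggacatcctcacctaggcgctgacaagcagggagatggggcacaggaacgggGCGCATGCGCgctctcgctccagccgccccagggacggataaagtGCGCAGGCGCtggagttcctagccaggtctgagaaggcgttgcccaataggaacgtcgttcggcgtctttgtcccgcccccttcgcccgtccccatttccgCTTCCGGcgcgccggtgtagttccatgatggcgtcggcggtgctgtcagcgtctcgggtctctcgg
Ndufv3, chr17:31519865-31520164 (plus strand): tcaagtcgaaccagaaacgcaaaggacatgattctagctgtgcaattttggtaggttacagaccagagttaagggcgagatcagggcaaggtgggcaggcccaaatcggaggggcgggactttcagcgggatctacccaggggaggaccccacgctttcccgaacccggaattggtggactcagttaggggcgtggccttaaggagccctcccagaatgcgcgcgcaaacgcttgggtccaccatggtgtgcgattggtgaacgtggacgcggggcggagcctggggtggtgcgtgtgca
Uqcrfs1, chr13:30545267-30545566 (minus strand): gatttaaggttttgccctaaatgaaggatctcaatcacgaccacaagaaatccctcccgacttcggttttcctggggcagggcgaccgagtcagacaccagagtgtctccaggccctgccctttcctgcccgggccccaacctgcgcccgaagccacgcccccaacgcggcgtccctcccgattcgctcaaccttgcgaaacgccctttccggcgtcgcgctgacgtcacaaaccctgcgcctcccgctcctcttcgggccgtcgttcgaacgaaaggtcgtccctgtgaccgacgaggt
The Cox6a1 window holds 2 NRF1 matches and 1 GABP match, and neither motif is in the windows of Ndufv3 and Uqcrfs1.

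Other mitochondrial genes were read from lists beside the members, against shares over all genes of 17.2% above and 15.5% below over alpha, 18.0% and 17.0% over delta, and 15.9% and 14.5% over PP. Of 27 assembly genes of other names, 2 of 12 measured lay above and 0 below over alpha, 1 and 1 of 13 over delta and 1 and 0 of 12 over PP, which is at or under those shares. The complex III assembly factor Uqcc2 was above in all 3, with 1007 CPM in beta, 411 in alpha, 428 in delta and 516 in PP. Of 19 genes of pyruvate entry and the citric acid cycle, 2 lay above and 1 below over alpha, 4 and 1 over delta and 2 and 1 over PP. Pcx, the pyruvate carboxylase, had 31.4 CPM in beta, 6.89 in alpha, 5.00 in delta and 10.6 in PP. Its levels outside beta are under the floor of 20 CPM and, with no free-RNA limit given, are not read as expression. Ogdh, a subunit of the oxoglutarate dehydrogenase, had log2 ratios of 0.84, 1.05 and 0.67. Mpc2, a subunit of the mitochondrial pyruvate carrier, lay below with -0.75, -0.75 and -0.73.

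Of 11 carrier and shuttle genes, 2 of 10 measured lay above and 2 below over alpha, 2 and 2 over delta and 3 and 0 over PP, beside 17.2% and 15.5%, 18.0% and 17.0%, and 15.9% and 14.5% of all genes. Vdac1, the channel of the outer membrane, was above in each with 0.76, 1.05 and 1.04, and Gpd2, the glycerol phosphate dehydrogenase of the inner membrane, had 0.43, 2.98 and 0.94. Among 77 genes of the mitochondrial ribosome, 1 of 69 lay above and 6 below over alpha, 7 and 4 of 72 over delta and 7 and 0 of 69 over PP, under the share over all genes each time. The lists that follow have too few measured genes to set against those shares. Of 14 genes for upkeep and transcription of the mitochondrial genome 5 were measured, with 0 above and 2 below over alpha, 1 and 0 over delta, and 0 and 2 over PP. Of the 9 electron carriers and partners of other names, 0 lay above and 1 below over alpha, 1 and 0 over delta, and none beyond over PP. Of 7 biogenesis regulators 3 were measured, with 0 above over alpha, 2 over delta and 1 over PP, and none below. Ppargc1a, a coactivator of mitochondrial biogenesis, had 30.1 CPM in beta, 19.6 in alpha, 10.8 in delta and 11.3 in PP.

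The TG library could be set beside WT only in droplets without a cell. In 59 TG barcodes with 782 UMIs in all, the mitochondrially encoded genes held 56 UMIs, or 7.16% of all UMIs (5.45 to 9.20), against 7.46% (7.45 to 7.48) in WT droplets of at most 200 UMIs. The nuclear structural subunits held 13 UMIs in TG droplets, 1.66% (0.888 to 2.83), against 1.27% (1.26 to 1.28) in WT droplets. These are shares of all UMIs, and the 2 pools differed in hormone RNA. Insulin was 13.2% of UMIs in TG and 34.0% in WT droplets, and Gcg 8.06% and 2.19%, for reasons that were not tested. Outside the hormone genes the mitochondrially encoded share was 11.5% in TG droplets (8.82 to 14.7) and 13.4% in WT droplets. For these shares of respiratory genes the TG interval holds the WT value, and a difference within these intervals was not detectable at this depth.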

How the data were processed

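Islets of miR-203 TG and WT mice were measured by droplet single-cell RNA sequencing, with 1 library per genotype. Per the file headers and the values, the deposited values are raw counts of UMIs per gene and droplet barcode, unfiltered and not normalised. Per the submitters' processing notes, reads were handled with FastQC and Trimmomatic against mm10, and no aligner or counting tool is named there. The preparation texts in the labels also describe a sort of intestinal goblet cells; a goblet marker list summed to 4.41 CPM in the beta class and 19.1 CPM in the PP class. The WT matrix was read whole (118523180 UMIs). The copy of the TG matrix held 547 of its 23580133 entries, so TG cells were not analysed here and cell barcodes shared between the libraries could not be counted.

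Barcodes were classed by hormone share if they held at least 500 genes and 5610 UMIs, which is 10% of the 99th percentile among the 3000 largest. Doublets were not called; barcodes that met several class rules were set aside. Raw counts were summed per class and scaled to CPM, counts per 1000000 UMIs outside Ins1, Ins2, Iapp, Gcg, Sst, Ppy and Pyy. Genes that reached 20 CPM in one class of a contrast were measured, and their log2 ratios were centred on the median gene (0.36 for alpha, 0.02 for delta and 0.11 for PP before centring). Levels have exact Poisson intervals, ratios exact conditional binomial intervals and shares Clopper-Pearson intervals, all at 95% and for counting error only; the ratio of mitochondrial to nuclear ratios has a normal interval on the log scale. With 1 library per group no p-value was computed. The free-RNA limit of a class is the share of its UMIs that droplets of at most 200 UMIs could supply if all of its insulin RNA (for beta, all of its Gcg RNA) were free.

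The members and lists were chosen with earlier results of these data known. Genes were named by rule: the mitochondrially encoded members, per complex the 2 highest and 2 lowest nuclear subunits against alpha, listed isoform genes, every member beyond 1.5-fold, and the 5 genes most like Cox6a2. The group of barcodes with both endothelial and mesenchymal markers, the spread between beta barcodes and the counts near the class limits were added after the data were seen. Gene positions come from GENCODE M21 and promoters from RefSeq, both on GRCm38. Sums and intervals were made with scipy 1.17.1, numpy 2.4.6 and pandas 2.3.3 under Python 3.11.15, figures with matplotlib 3.10.9, and edgeR 4.0.16 in R 4.3.3 gave the trimmed mean of M values of 1 alternative. The ratio step was tested on simulated data.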

Additional observations from a re-analysis of the deposited data

How the results depend on the processing

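The log2 ratios of 47 named genes gave 1530 recomputed values under 11 alternatives, of which 1056 stayed within their counting interval. Of ratios beyond 1.5-fold, 5 changed sign, all over delta on CPM of all UMIs without centring: Atp5e (-0.23), Ndufa2 (-0.22), Ndufb9 (-0.066), Uqcrc1 (-0.18) and Uqcrq (-0.21). On CPM of all UMIs without centring, where the median gene lay at -0.46 against alpha, -0.90 against delta and -0.33 against PP, mitochondrially encoded members past 1.5-fold above numbered 2, 0 and 2, nuclear members above 1 against alpha and 1 against delta, and nuclear members below 30, 55 and 7. With hormone and mitochondrial UMIs both out of the total and no centring (median gene 0.42 against alpha, 0.17 against PP), nuclear members above numbered 21 against alpha and 12 against PP, and nuclear members below 1 and 0. The trimmed mean of M values gave 6 nuclear members above against PP. A floor of 50 CPM left 2 below against delta. No floor with a pseudocount of 1 CPM gave 10 above and 4 below against alpha, 5 above and 7 below against delta, and 6 above against PP. Classes of higher purity gave mitochondrial to nuclear ratios of 2.05 (alpha), 1.97 (delta) and 1.58 (PP), with 5 nuclear members above against PP. Weighting barcodes equally gave ratios of 2.12, 2.00 and 1.55. Barcodes of 10000 to 30000 UMIs gave 1 above, 13 below and a ratio of 2.30 against alpha, and a ratio of 1.73 against PP. Against delta, with 48 delta barcodes left, they gave 4 above, 0 below and a Cox6a2 log2 ratio of 5.61. Taking off the free-RNA limit gave ratios of 2.32, 2.42 and 2.02, and 7 nuclear members above against PP. Cox6a2 then had log2 ratios of 7.02 over alpha and 9.55 over PP, and over delta no UMI remained. Those Cox6a2 ratios rest on almost nothing outside beta and are not read as fold changes. Before the step Cox6a2 was at 5.87 CPM in alpha, with a limit of 5.29, and at 10.6 CPM in PP, with a limit of 10.5. Without barcodes over 10% mitochondrial UMIs the ratio against delta was 1.96. The share of all genes past 1.5-fold is not given for these settings, so the counts of members are not read as a result about them. Why each value moved was not tested. No paired analysis was possible because each group has 1 library. Depth limits the delta and PP classes most: 3 counts correspond to 2.50 CPM in delta and 2.12 CPM in PP, against 0.0832 CPM in beta and 0.608 CPM in alpha.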
